A study of Mus musculus with 7 samples.

Results

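Of the 4524 nuclei in the deposited annotation of mouse striatum, 112 carried the label for endothelial cells, and the account that follows is of these nuclei. They were taken by that label alone, with no threshold on any gene. Nuclear RNA was read from the 3' ends of transcripts in droplet libraries, 1 library a mouse, from 7 male C57BL6/J mice. The 4 HttQ175/+ mice carried in 1 copy the HttQ175 knock-in allele, in which the mouse huntingtin gene holds an expanded CAG repeat as a model of Huntington's disease, and the 3 WT mice carried none. HttQ175/+ replicate 1 was 15 months old and the other 6 mice were 14 months old. HttQ175/+ replicates 1 to 4 gave 33, 34, 10 and 6 endothelial nuclei, and WT replicates 1 to 3 gave 14, 8 and 7. The mouse is the replicate in every comparison, and replicate numbers only name mice.

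The endothelium of brain capillaries forms the blood-brain barrier. Its cells are joined by tight junctions, carry transporters that admit glucose, amino acids and thyroid hormone and export foreign compounds, and depend on Wnt and VEGF signalling. Pericytes lie against the same capillaries within a shared basement membrane, and smooth muscle cells wrap arterioles. Both are called mural cells. Endothelial and mural cells are different types, so RNA of both in 1 nucleus is a matter to be measured before either is described.

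The genes Flt1, Cldn5, Slco1a4 and Rgs5 mark these nuclei, and the sequences around their starts are given first because these genes are described most closely below. Flt1 encodes a VEGF receptor, Cldn5 the main tight junction protein of the barrier, Slco1a4 an organic anion transporter of brain endothelium, and Rgs5 a regulator of G protein signalling best known from pericytes. Each sequence below runs from 250 bases before the RefSeq start of the gene to 50 bases after it, on the strand of the gene, in build GRCm38.p6. Capitals mark GGAAGT or its reverse complement ACTTCC, the core of sites bound by ETS factors, a family whose members Erg, Fli1 and Ets1 act in endothelium.
Flt1: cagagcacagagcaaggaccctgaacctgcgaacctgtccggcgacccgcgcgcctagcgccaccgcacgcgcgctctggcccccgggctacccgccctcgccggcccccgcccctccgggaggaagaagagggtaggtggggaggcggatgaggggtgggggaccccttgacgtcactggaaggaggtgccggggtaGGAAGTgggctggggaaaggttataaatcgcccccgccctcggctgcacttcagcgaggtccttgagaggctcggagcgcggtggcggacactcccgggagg
Cldn5: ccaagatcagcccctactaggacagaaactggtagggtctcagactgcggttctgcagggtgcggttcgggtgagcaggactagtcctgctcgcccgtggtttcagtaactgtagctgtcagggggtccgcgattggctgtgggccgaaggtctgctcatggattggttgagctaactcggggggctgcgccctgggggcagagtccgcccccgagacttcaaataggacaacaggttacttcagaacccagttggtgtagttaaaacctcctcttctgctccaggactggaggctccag
Slco1a4: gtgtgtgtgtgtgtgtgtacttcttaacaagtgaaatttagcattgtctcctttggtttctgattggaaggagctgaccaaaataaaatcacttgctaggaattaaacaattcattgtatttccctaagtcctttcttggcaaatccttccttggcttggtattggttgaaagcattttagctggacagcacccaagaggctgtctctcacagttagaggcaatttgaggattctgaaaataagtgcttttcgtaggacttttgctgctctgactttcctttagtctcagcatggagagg
Rgs5: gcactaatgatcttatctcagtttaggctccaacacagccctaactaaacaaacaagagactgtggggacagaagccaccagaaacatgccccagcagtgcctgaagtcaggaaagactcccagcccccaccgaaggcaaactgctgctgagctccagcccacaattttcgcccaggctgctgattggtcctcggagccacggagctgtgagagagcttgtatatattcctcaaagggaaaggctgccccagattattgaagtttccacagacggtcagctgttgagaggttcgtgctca
These windows lie at chr5:147725962-147726261 on the minus strand for Flt1, chr16:18776597-18776896 on the plus strand for Cldn5, chr6:141856171-141856470 on the minus strand for Slco1a4, and chr1:169655251-169655550 on the plus strand for Rgs5. The Flt1 window held 1 match and the other 3 windows held none. Among the 50 genes highest in endothelial nuclei against other types, 38 had a RefSeq window, and GGAAGT on either strand was in 23.9% of their 46 windows, against 23.8% of all 32851 windows. The longer motif ACCGGAAGT, which contains the shorter one, was in 0 of the 46 windows and in 1.1% of all windows. The motif was no more frequent near the starts of these genes than near other starts by these counts, which are a description with no test.

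Depth in these nuclei was low, and it sets what follows. They held 221377 unique molecular identifiers (UMIs, counted molecules), 163652 in HttQ175/+ and 57725 in WT. Single nuclei held 1130 to 5256 UMIs. The median per nucleus was 1779, 1906.5, 1529 and 1509 UMIs in HttQ175/+ replicates 1 to 4 and 1450, 1829 and 1690 UMIs in WT replicates 1 to 3. The groups overlapped and their means differed by less than the spread between mice, at 1681 ± 194 UMIs in HttQ175/+ and 1656 ± 192 UMIs in WT (SD, n = 4 and 3, exact two-sided permutation p = 0.857). No endothelial nucleus shared its barcode with another library, and Scrublet marked none of the 112 as a doublet. The share of all nuclei labelled endothelial was 4.01, 2.74, 2.23 and 0.856% in HttQ175/+ replicates 1 to 4 and 3.35, 2.37 and 1.25% in WT replicates 1 to 3. These shares overlapped fully, with means of 2.46 ± 1.31% in HttQ175/+ and 2.32 ± 1.05% in WT (exact two-sided permutation p = 0.914). A split of 4 mice against 3 cannot give a p below 0.0571.

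HttQ175/+ replicate 2 stands apart, as 18 of its 34 nuclei held under 10 UMIs of the 19 vascular markers described below, against 2 nuclei in the 6 other mice together. In 22 of its 34 nuclei at least 5 UMIs came from a list of 10 spiny projection neuron genes, as did 5 of 7 in WT replicate 3, 9 of 33 in HttQ175/+ replicate 1, 3 of 14 in WT replicate 1 and 0 in the other mice. The genotype values of the core list and of the mural-majority share are given with and without it.

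The label was checked with 9 endothelial markers (Flt1, Cldn5, Slco1a4, Pecam1, Cdh5, Tek, Ptprb, Adgrl4 and Mecom) and 10 mural markers (Rgs5, Pdgfrb, Vtn, Kcnj8, Abcc9, Atp13a5, Notch3, Acta2, Myh11 and Tagln). Of the 112 nuclei, 105 held at least 1 endothelial marker UMI and 95 at least 1 mural marker UMI, and 1 nucleus held neither. At least 5 UMIs of both sets were present in 55 nuclei. A further 33 had 5 or more endothelial UMIs with fewer than 5 mural ones, 14 had the opposite, and 10 reached 5 of neither, 9 of these 10 in HttQ175/+ replicate 2. The annotated set thus carried endothelial RNA as labelled and UMIs of the mural markers as well, in many of the same nuclei. In some nuclei the mural sum was Rgs5 alone, as in a nucleus of HttQ175/+ replicate 3 with 14 mural UMIs, 14 of them Rgs5. Outside it, among 4412 nuclei of the 11 other types, 2 nuclei reached 5 endothelial marker UMIs and 8 reached 5 mural ones.

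**Figure D1:**
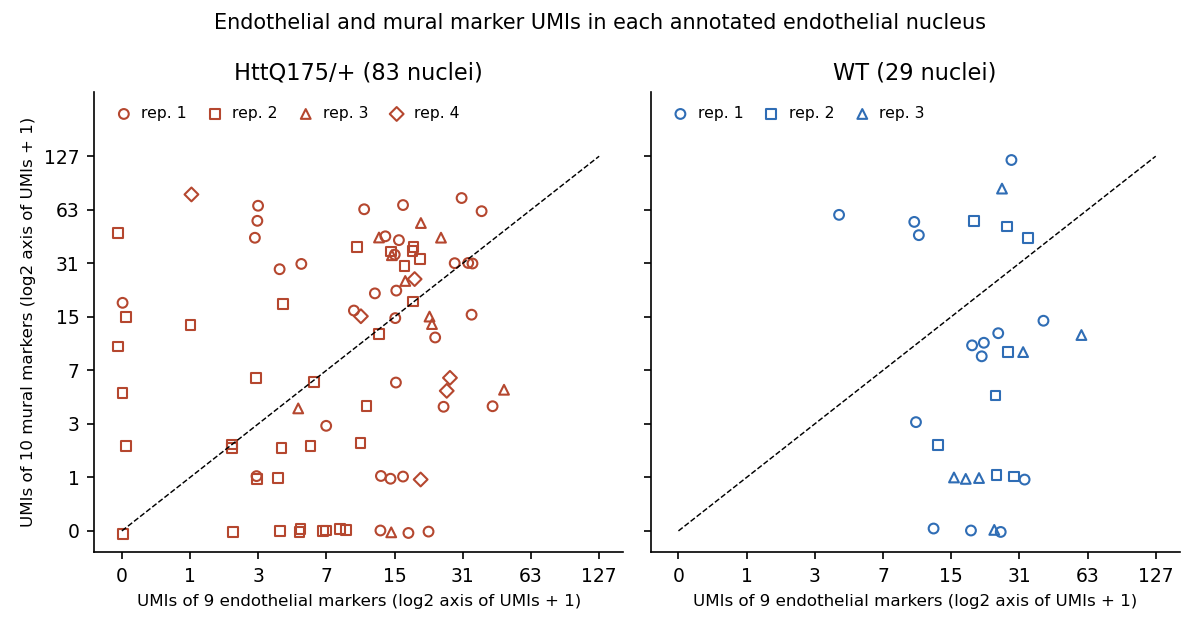
Each point is 1 annotated endothelial nucleus, placed by its UMIs of 9 endothelial markers (horizontal) and of 10 mural markers (vertical), both on log2 axes of UMIs + 1 with slight jitter, with HttQ175/+ at left and WT at right and symbols for mice. The dashed line marks equal UMIs: 47 nuclei lie above it and 59 below, and squares of HttQ175/+ replicate 2 fill the lower left corner.

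Single pairs of genes show the same overlap. Flt1 and Rgs5 were both detected in 81 nuclei, Flt1 alone in 17, Rgs5 alone in 9 and neither in 5. Cldn5 and Rgs5 occurred together in 71 nuclei. The mural genes other than Rgs5 were less widespread. Vtn, which encodes the matrix protein vitronectin and is a pericyte gene in mouse brain, had a UMI in 59 nuclei, 52 of them with Flt1. Pdgfrb, the receptor through which endothelial PDGF-B recruits pericytes, had a UMI in 53 nuclei, 47 of them with Flt1.

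The background that free RNA in the droplets could give was read from the other types, whose median depth was 1523 to 2815 UMIs a nucleus against 1725 in endothelial nuclei. A mural marker UMI was present in 84.8% of endothelial nuclei, against 3.4% of D2.MSN nuclei, 4.48% of D1.MSN nuclei and 7.26% of oligodendrocytes. Astrocytes were the next highest at 47.3%, where Pdgfrb alone had a UMI in 36.0% of nuclei and Rgs5 in 2.33%. Endothelial marker UMIs were in 93.8% of endothelial nuclei and in 2.3 to 18.3% of nuclei of the other types, highest in microglia. The wider lists of 17 pericyte and 10 smooth muscle genes serve poorly here, because some members are used elsewhere. At least 1 of their UMIs was in 93.8% of endothelial nuclei, but also in 75.6% of Polydendrocytes, where Cspg4 had a UMI in 55.1%, and in 48.3% of D1.MSN nuclei, where Ebf1 had one in 40.1%.

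**Figure D2:**
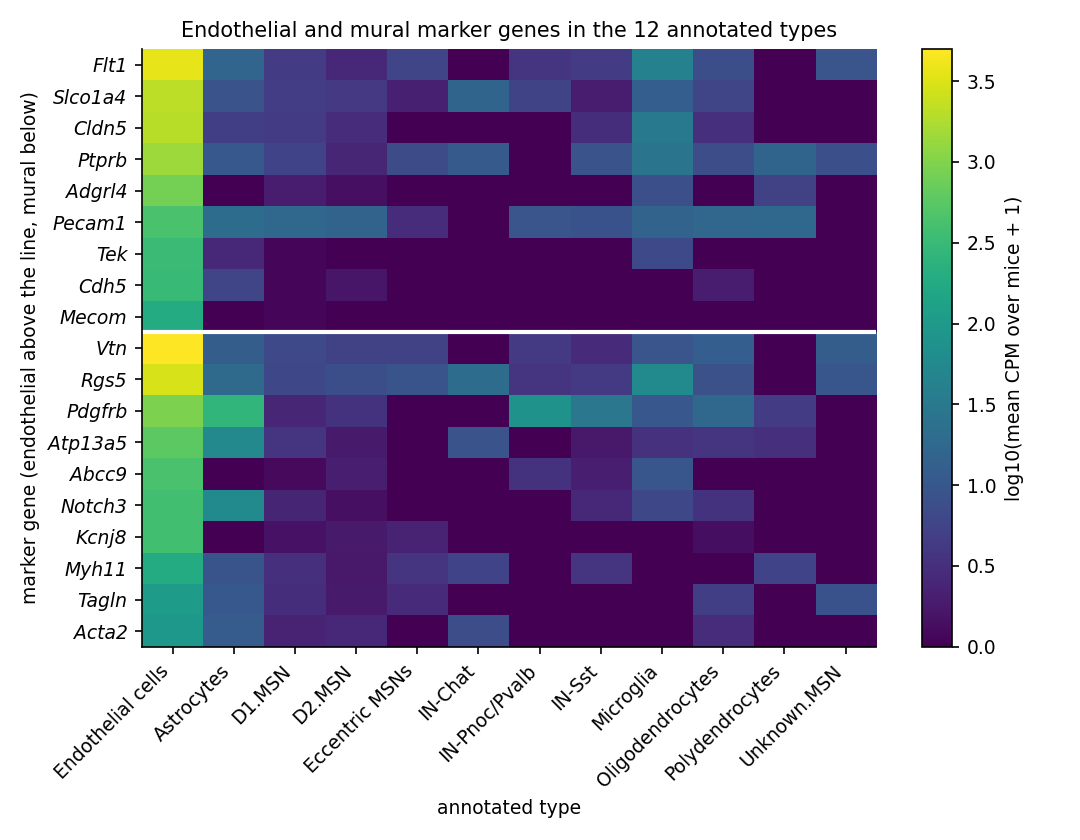
Mean level over mice, as log10 of CPM + 1, of 9 endothelial markers (above the white line) and 10 mural markers (below it) in the 12 annotated types. Both blocks are brightest in the endothelial column, and Pdgfrb in astrocytes, at 269 CPM against 939 CPM in endothelial nuclei, is the brightest cell outside it.

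Against the highest other type, a comparison with no test because the label was made from the same kind of data, the leading gene was the pericyte gene Vtn. Its mean over the 7 mice was 4980 CPM (UMIs of the gene scaled to a fixed total of 1000000) in endothelial nuclei and 11.8 CPM in oligodendrocytes, the next type. Slco1a4 followed with 2131 CPM against 14.8 CPM in cholinergic interneurons (IN-Chat). Igfbp7, a secreted binding protein of vessels, had 2025 CPM against 14.6 CPM in astrocytes. Flt1 had 3591 CPM against 41.7 CPM, and Cldn5 2020 CPM against 30.7 CPM, both in microglia. The chemokine gene Cxcl12, the surface protein gene Ly6c1, the efflux pump gene Abcb1a, Rgs5 and the flow-responsive transcription factor gene Klf2 completed the first 10. Of the 25 leading genes, 12 belonged to the endothelial core list and 3 (Vtn, Rgs5 and Kcnj8) to the mural lists. In all, 162 of 1348 genes with at least 30 UMIs stood 4-fold or more above the highest other type after 20 CPM was added to both.

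By role, barrier genes were abundant. Bsg, the basigin chaperone of lactate transporters, averaged 5504 CPM, with 177 CPM in Polydendrocytes as the next type. Slc2a1, the glucose transporter of the barrier, averaged 2113 CPM against 95.6 CPM in astrocytes. Slco1c1, a thyroxine transporter, had 1193 CPM against 373 CPM in astrocytes, and Slc7a5, the large neutral amino acid transporter, 1030 CPM against 43.3 CPM in Polydendrocytes. Not every barrier gene was so restricted. Slc6a6, the taurine transporter, had 1387 CPM against 523 CPM in D2.MSN nuclei. Mfsd2a, the lipid carrier that limits transcytosis, had 33 UMIs in all, at 243 CPM against 117 CPM in Polydendrocytes. These CPM count molecules from 3' tags and were not corrected for transcript or gene length.

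Of the junction, receptor and regulator genes Flt1 and Cldn5 were given above, and the following were lower than both. Cdh5, which encodes VE-cadherin, averaged 317 CPM, the occludin gene Ocln 158 CPM and the zonula occludens gene Tjp1 440 CPM, with at most 166 CPM of Tjp1 in another type. Ptprb, a phosphatase acting on the angiopoietin receptor, averaged 1437 CPM, the TGF-beta co-receptor gene Eng 926 CPM, and the VEGF receptor gene Kdr 298 CPM, far under its relative Flt1. Among transcription factors Epas1 had 1319 CPM, Klf2 1074 CPM and Lef1, an effector of Wnt signalling, 319 CPM. In the basement membrane list the highest were Sparc with 908 CPM and the fibronectin gene Fn1 with 697 CPM.

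Genes of vessel segments ranged from widespread to sparse. The capillary list of 8 genes had UMIs in 102 nuclei, the arterial list of 12 in 81 and the venous list of 9 in 52. Spock2, a proteoglycan gene of the capillary list, averaged 2162 CPM. Of the arterial list Mgp, a matrix protein, averaged 680 CPM and the membrane protein gene Tm4sf1 675 CPM. Other genes of these lists were detected in few nuclei. Gkn3, an arterial gene in mouse brain, had 69 UMIs in 18 nuclei. Vcam1, an adhesion receptor of veins and of activated endothelium, had 27 UMIs in 6 nuclei, and 17 of these UMIs lay in 1 nucleus of HttQ175/+ replicate 1. Vcam1 is in the venous list, and these 17 UMIs made up most of that nucleus's venous sum of 19 UMIs, the highest. Smooth muscle RNA was likewise concentrated. Acta2, smooth muscle actin, had 30 UMIs in 5 nuclei. A single nucleus of HttQ175/+ replicate 2 held 51 UMIs of the smooth muscle list, 1 nucleus of HttQ175/+ replicate 1 held 34 and 1 nucleus of WT replicate 3 held 44, the last beside 71 pericyte and 41 arterial list UMIs in 4400 UMIs. Fibroblast genes gave 80 UMIs over 11 of 16 listed genes. Of the 10 macrophage and leukocyte genes 9 had 0 UMIs in the 112 nuclei, which allows each up to 13.6 CPM by a limit of 3 UMIs over all nuclei.

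To see how mural and endothelial RNA divide the set, each nucleus was assigned by which of its 2 marker sums was larger. Of the 112 nuclei, 47 had more mural UMIs, 59 more endothelial UMIs and 6 equal numbers. The 47 mural-majority nuclei held a median of 39 mural and 13 endothelial marker UMIs, and the 59 endothelial-majority nuclei a median of 2 mural and 17 endothelial marker UMIs. Among the mural-majority nuclei 32 still held 5 or more endothelial UMIs, and among the endothelial-majority nuclei 20 held 5 or more mural ones. Much of the mural sum in endothelial-majority nuclei was Rgs5, with 188 UMIs in 41 of these nuclei. Vtn had 50 UMIs in 10 of them and Pdgfrb 15 UMIs in 7. Median depth was 1754 UMIs in mural-majority and 1768 UMIs in endothelial-majority nuclei. These classes are ranges of 2 sums and not types, and 16 nuclei lay within 3 UMIs of equality, 12 of them in HttQ175/+ replicate 2, 3 in HttQ175/+ replicate 1 and 1 in HttQ175/+ replicate 3.

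Genes that the assignment did not use separated along the same line. The proteoglycan gene Cspg4 (NG2), a pericyte marker, had 784 CPM in mural-majority nuclei and 26.5 CPM in endothelial-majority nuclei. Higd1b, known from brain pericytes, had 570 CPM in mural-majority and 26.5 CPM in endothelial-majority nuclei, and the myosin light chain gene Myl9 672 CPM and 35.3 CPM. In the other direction, Klf2 had 255 CPM in mural-majority and 909 CPM in endothelial-majority nuclei, and its relative Klf4 112 CPM and 415 CPM. The gene furthest in that direction was Ttr, with 0 UMIs in mural-majority nuclei and 137 in endothelial-majority nuclei, 130 of them in 1 nucleus. Genes abundant in neurons lay there too, among them Plcb1, a phospholipase, with 40.7 CPM and 300.0 CPM, and Camk2b, a kinase subunit, with 91.7 CPM and 432 CPM. The 10 spiny projection neuron genes summed to 1915 CPM in mural-majority and 3150 CPM in endothelial-majority nuclei. Of the markers themselves Vtn, at 9594 CPM in mural-majority and 441 CPM in endothelial-majority nuclei, was far more divided than Rgs5, at 3330 CPM and 1659 CPM in the same order. Cldn5 kept 1029 CPM in mural-majority nuclei and had 1782 CPM in endothelial-majority nuclei, while no other type exceeded 30.7 CPM. These are pooled levels, and the genes were chosen for the size of the difference after values were seen, with no test. Whether nuclei of both types shared droplets was not tested. The Scrublet calls cannot decide it, because each library held only 6 to 34 endothelial nuclei.

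In every HttQ175/+ mouse the share of mural-majority nuclei lay above that of every WT mouse, without passing a test. It was 51.5, 41.2, 50.0 and 50.0% in HttQ175/+ replicates 1 to 4, and 28.6, 37.5 and 14.3% in WT replicates 1 to 3. The means were 48.2 ± 4.72% in HttQ175/+ and 26.8 ± 11.7% in WT (SD, n = 4 and 3). The exact two-sided permutation p was 0.0571, the smallest this design allows and short of 0.05, and the measure was chosen after values of these data had been seen. Without HttQ175/+ replicate 2 the difference of HttQ175/+ minus WT was 23.7 percentage points, against 21.4 with it. The exact permutation p without that mouse was 0.1, the smallest that 3 mice against 3 allow. The lowest WT share stands on 1 of 7 nuclei, and the pooled shares were 39 of 83 or 47.0% in HttQ175/+ (95% exact binomial interval 35.9 to 58.3%) and 8 of 29 or 27.6% in WT (12.7 to 47.2%). These intervals overlap and cover counting error only. Among nuclei with at least 10 marker UMIs the shares were 53.1, 68.8, 55.6 and 50.0% in HttQ175/+ replicates 1 to 4 and the same as before in the WT mice. The plainer measure, at least 1 UMI of the 2 mural lists, was in 97.0, 88.2, 100 and 100% of nuclei in HttQ175/+ replicates 1 to 4 and in 85.7, 100 and 100% in WT replicates 1 to 3, with overlap (exact permutation p = 1.0).

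**Figure D3:**
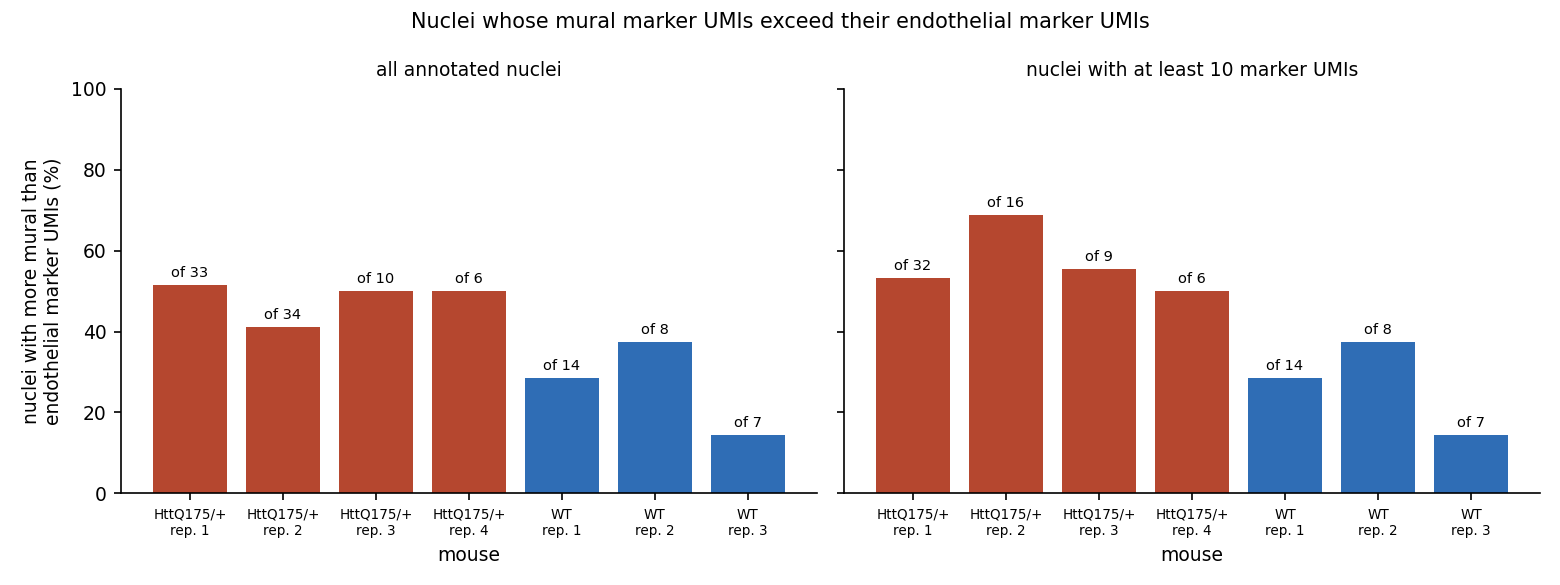
Percentage of nuclei with more mural than endothelial marker UMIs in each mouse, HttQ175/+ in red and WT in blue, for all annotated nuclei (left) and for those with at least 10 marker UMIs (right), with the number of nuclei above each bar. The 4 HttQ175/+ bars stand at 41.2 to 51.5% at left, above the WT bars at 14.3 to 37.5%.

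The 4 marker genes did not separate the genotypes. Flt1 averaged 2665, 1093, 4651 and 4159 CPM in HttQ175/+ replicates 1 to 4, against 3793, 5289 and 3486 CPM in WT replicates 1 to 3. Only HttQ175/+ replicates 1 and 2 lay below the WT mice. Cldn5 averaged 1561, 819, 2066 and 2533 CPM in the HttQ175/+ mice, against 1640, 2727 and 2793 CPM in the WT mice. Slco1a4 averaged 1615, 660, 2902 and 2466 CPM in HttQ175/+, against 2031, 2198 and 3047 CPM in WT. For both, HttQ175/+ replicate 2 was the lowest mouse and the groups overlapped. Rgs5 averaged 2843, 1465, 4122 and 2075 CPM in HttQ175/+, against 3932, 3032 and 3283 CPM in WT, with the highest and the lowest mouse both HttQ175/+. The log2 fold changes of HttQ175/+ over WT from limma, on a scale of log2(CPM + 114.48), which makes changes of low genes smaller, were -0.50 ± 0.40 for Flt1, -0.43 ± 0.36 for Cldn5, -0.42 ± 0.41 for Slco1a4 and -0.38 ± 0.43 for Rgs5 (± SE), with Benjamini-Hochberg adjusted p of 0.821, 0.83, 0.83 and 0.834. Without HttQ175/+ replicate 2 they were -0.22 for Flt1, -0.27 for Cldn5 and -0.15 for Slco1a4, and without WT replicate 3 Slco1a4 was at -0.26. For Rgs5 the value ran from -0.60 without HttQ175/+ replicate 1 to -0.11 without HttQ175/+ replicate 4 and was -0.19 without WT replicate 1. Huntingtin itself could not be compared, because Htt had 9 UMIs in HttQ175/+ nuclei and 3 in WT nuclei.

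**Figure D4:**
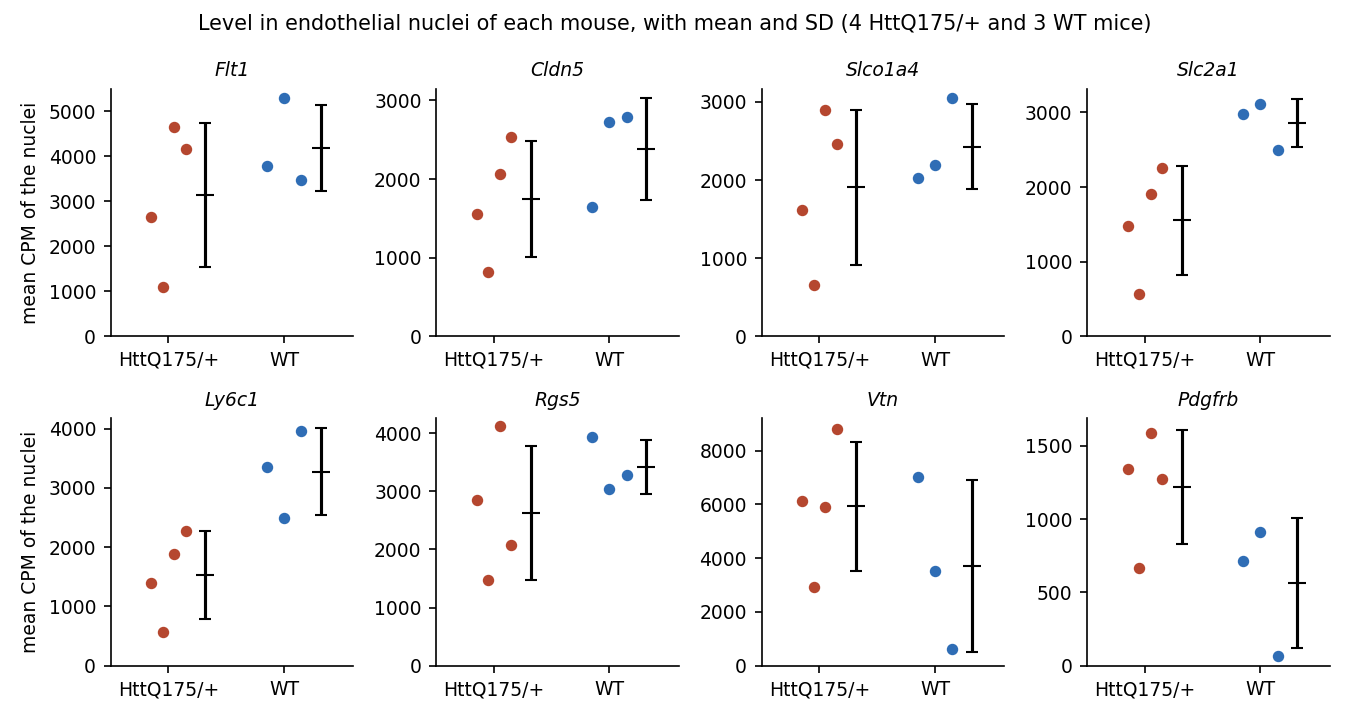
Mean CPM over the endothelial nuclei of each mouse (points, HttQ175/+ in red at left and WT in blue at right of each panel) for 8 genes, with mean and SD beside them in black. The groups overlap in 6 panels, and in the panels of Slc2a1 and Ly6c1 all 4 HttQ175/+ mice lie below all 3 WT mice.

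Across the 235 genes deep enough to test, none passed an adjusted p of 0.05 in limma, which is 0.0% called, and the smallest adjusted p was 0.713. At an unadjusted p under 0.05 there were 16 genes, or 6.81%. On the CPM as printed, all HttQ175/+ mice lay above all WT mice for 1 gene, 0.426% of those tested, and below them for 17, 7.23%. Among 9077 genes tested with the filter lowered to 5 UMIs, 249 lay above and 216 below. With 0 of the genes called in every alternative fit that was run, the lowest adjusted p was 0.075, where only mice with at least 10 nuclei were kept and WT was reduced to 1 mouse, assumed to vary like the others.

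The genes with the smallest p in each direction are given as values that did not pass. Among those with higher fitted values was Pdgfrb, with 1345, 670, 1592 and 1275 CPM in HttQ175/+ replicates 1 to 4, against 714, 912 and 64.9 CPM in WT replicates 1 to 3. HttQ175/+ replicate 2 lay below both of the higher WT mice (log2 fold change 1.32 ± 0.56, limma adjusted p = 0.713). Vtn had 6111, 2910, 5911 and 8791 CPM in HttQ175/+, against 7005, 3530 and 604 CPM in WT. WT replicate 3 was far below the other mice, and when UMIs were pooled by genotype the HttQ175/+ to WT ratio of Vtn was 1.04, with a counting interval of 0.901 to 1.20. Without WT replicate 3 the log2 fold change was 0.55 for Pdgfrb and 0.21 for Vtn, which was at 1.15 with all mice and at 1.95 without WT replicate 1. With a minimum of 10 nuclei a mouse Pdgfrb was at 0.71. Sept4, a septin, Mfge8, a secreted bridging protein made by pericytes and astrocytes, and Kcnq1ot1, a long noncoding RNA of an imprinted cluster, had log2 fold changes of 1.30 ± 0.56, 0.75 ± 0.39 and 1.54 ± 0.79. That of Kcnq1ot1 was 1.02 without WT replicate 2 and 2.61 without WT replicate 3.

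In the lower direction Ly6c1 had 1394, 562, 1892 and 2265 CPM in HttQ175/+ replicates 1 to 4, against 3359, 2499 and 3953 CPM in WT replicates 1 to 3. No HttQ175/+ mouse reached a WT one (log2 fold change -1.11 ± 0.40, limma adjusted p = 0.713), and reads shared with its close copies in the Ly6 cluster could not be told apart. The intermediate filament gene Vim had 349, 104, 462 and 504 CPM in HttQ175/+, against 854, 713 and 990 CPM in WT. Pltp, a phospholipid transfer protein, had 1236, 644, 2496 and 1515 CPM in HttQ175/+, against 2861, 3054 and 2714 CPM in WT. The groups did not overlap for either gene, with log2 fold changes of -1.11 ± 0.44 for Vim and -0.99 ± 0.39 for Pltp. Hspb1, a small heat shock protein, and Pglyrp1, a peptidoglycan recognition protein, had -1.31 ± 0.50 and -1.11 ± 0.44, with 1 or more HttQ175/+ mice above the lowest WT mouse.

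Slc2a1, the glucose transporter, was also lower in all 4 HttQ175/+ mice without passing. It had 1485, 569, 1909 and 2258 CPM in HttQ175/+ replicates 1 to 4, against 2974, 3109 and 2491 CPM in WT replicates 1 to 3 (log2 fold change -0.91 ± 0.39, limma adjusted p = 0.713). Cxcl12 had 1281, 404, 2265 and 1038 CPM in HttQ175/+, against 2675, 2294 and 2523 CPM in WT. HttQ175/+ replicate 3 lay just below the lowest WT mouse. Other genes below in every HttQ175/+ mouse included Slc9a3r2, Actg1, Timp3, Sema7a, Fau, Ier3, Slc1a2, Igfbp7, Cst3, Ubb and H3f3b, and Srrm2, a splicing factor, was the 1 gene above.

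The lists of endothelial and pericyte genes lay on opposite sides of the median of all tested genes, which was -0.24 on the log2 scale with 82 positive and 153 negative values. All 17 tested members of the endothelial core list had negative log2 fold changes, with a median of -0.55, and none passed. Without HttQ175/+ replicate 2, 16 of 17 were negative and the median was -0.29, beside -0.17 for all genes. The summed core list was 19939, 8809, 32056 and 27931 CPM in HttQ175/+ replicates 1 to 4, against 30844, 36640 and 35793 CPM in WT replicates 1 to 3, so HttQ175/+ replicate 3 lay within the WT range. Of 10 tested pericyte genes 9 were positive, with a median of 0.69, and none passed. That median was 0.14, with 6 of 10 positive, without WT replicate 3, 0.39 without HttQ175/+ replicate 1 and 1.19 without WT replicate 2. With the filter lowered to 5 UMIs, 14 of 16 pericyte genes were positive, with a median of 0.30, beside 0.10 for all genes. In that setting 24 of 25 core genes were negative, with a median of -0.61. The summed pericyte list was 15837, 7153, 17756 and 17309 CPM in HttQ175/+, against 15938, 12538 and 4635 CPM in WT, with overlap. The share of mural-majority nuclei, given above, was made from markers that include members of both lists, and its part in them was not tested. Without mural-majority nuclei 15 of 18 tested core genes were negative, with a median of -0.58, beside -0.21 for all genes. Only 2 pericyte genes could then be tested.

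**Figure D5:**
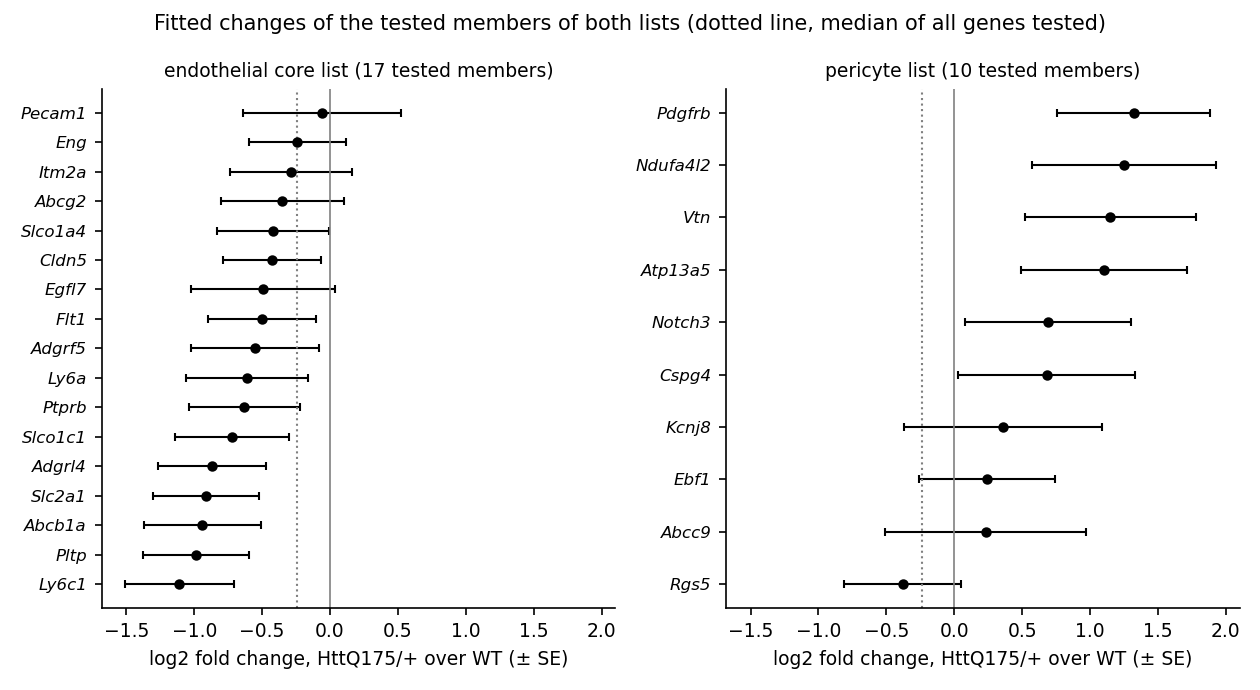
Log2 fold changes of HttQ175/+ over WT (points, ± SE) for the 17 tested endothelial core genes and the 10 tested pericyte genes, with a solid line at 0 and a dotted line at the median of all 235 genes, -0.24. All core genes lie left of 0 and all pericyte genes but Rgs5 right of it, and none passed the adjusted threshold.

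When only endothelial-majority nuclei with at least 10 marker UMIs were kept, HttQ175/+ replicates 1 to 4 gave 14, 3, 4 and 3 nuclei and WT replicates 1 to 3 gave 10, 5 and 6. The core list then summed to 26855, 11959, 43903 and 37740 CPM in the HttQ175/+ mice, against 35136, 42145 and 39297 CPM in the WT mice. HttQ175/+ replicate 3 was then the highest mouse and HttQ175/+ replicate 2, with 3 nuclei, the lowest. None of the 24 lists kept the genotypes apart in these nuclei.

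The remaining vascular lists gave no call, and their counts are not separate, because lists share members. Flt1, Ptprb and Eng are in both the core list and the receptor list. Slco1a4, Abcb1a and Slc2a1 are in both the core list and the transporter list, and Lef1 is in both the Wnt and the transcription factor list. Of 10 tested barrier transporters 8 were negative and 2, Slc6a6 and Slc3a2, positive, with a median of -0.39. That median was -0.22 without HttQ175/+ replicate 2, beside -0.17 for all genes, -0.61 without HttQ175/+ replicate 3, and -0.64 without HttQ175/+ replicate 1 or without WT replicate 1. Slc6a6 had 752, 683, 2523 and 1897 CPM in HttQ175/+ replicates 1 to 4, against 1150, 2071 and 634 CPM in WT replicates 1 to 3, and Abcb1a had 569, 275, 1242 and 593 CPM in HttQ175/+, against 868, 1974 and 1268 CPM in WT. In the list of receptors and signalling 8 of 9 were negative, with a median of -0.50. With the filter lowered to 5 UMIs, 31 of 35 of that list were negative, with a median of -0.37. At that filter 20 of 25 transporters were negative, with a median of -0.50, beside 0.10 for all genes. All 6 tested transcription factors were negative, with a median of -1.05. With the filter lowered to 5 UMIs, 20 of 23 were negative and 3 positive, with a median of -0.29. Klf2, the lowest of the 6, had 404, 36.2, 1523 and 1131 CPM in HttQ175/+, against 1283, 1297 and 1846 CPM in WT. Its log2 fold change was -1.33, and -0.70 without HttQ175/+ replicate 2. Junctions had 3 tested genes and the Wnt list 1, Lef1, at -1.24 ± 0.72. Lef1 was not deep enough to test without WT replicate 2 or without WT replicate 3. The 5 tested genes of the activation list were all negative, with a median of -0.33. With the filter lowered to 5 UMIs, 10 of 17 were negative, with a median of -0.15. Without mural-majority nuclei 3 of the 5 were positive, with a median of 0.19. The median ran from -0.56 without WT replicate 2 to -0.08 without HttQ175/+ replicate 4, and was -0.11, with 2 of 5 positive, without WT replicate 1 and -0.55 without HttQ175/+ replicate 1. B2m and the class I genes H2-D1 and H2-K1, whose reads can be shared between near copies, were among them.

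The caveolae list was the 1 list of 24 whose sum was lower in all HttQ175/+ mice. It summed to 438, 272, 690 and 371 CPM in HttQ175/+ replicates 1 to 4, against 897, 1185 and 1185 CPM in WT replicates 1 to 3, from 60 and 53 UMIs over 7 genes. Cav1, the coat protein of caveolae, contributed 8 UMIs in HttQ175/+ and 13 in WT, and none of the 7 genes was deep enough to test. In endothelial-majority nuclei this sum overlapped between genotypes.

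RNA of other cells varied widely between mice of both genotypes. The 10 spiny projection neuron genes summed to 1516, 3509, 318 and 485 CPM in HttQ175/+ replicates 1 to 4 and to 1868, 555 and 3893 CPM in WT replicates 1 to 3, under the 9719 CPM of D2.MSN nuclei. The 20 nuclei with under 10 vascular marker UMIs held a median of 8 such UMIs, and the 92 others a median of 1. The astrocyte list summed to 2046, 2207, 817 and 2612 CPM in HttQ175/+ and to 2226, 2381 and 3913 CPM in WT. The oligodendrocyte list summed to 2213, 807, 1987 and 581 CPM in HttQ175/+ and to 386, 481 and 1192 CPM in WT. In WT replicate 3, 1 nucleus held 132 UMIs of the ependymal and choroid plexus list, 130 of them from Ttr, the transthyretin gene that choroid plexus expresses strongly. The part of these RNAs in the genotype values was not tested.

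Mitochondrially encoded transcripts, whose source in these preparations of nuclei was not tested, were higher in endothelial nuclei than in any other type. Their summed mean was 20021 CPM against 7470 CPM in astrocytes. They summed to 15095, 10831, 23679 and 34314 CPM in HttQ175/+ replicates 1 to 4 and to 14575, 25851 and 15805 CPM in WT replicates 1 to 3. The highest and the lowest mouse were both HttQ175/+. Of 8 tested genes 6 were positive, with a median log2 fold change of 0.16, and none passed. That median was 0.09 without HttQ175/+ replicate 1, 0.27 without HttQ175/+ replicate 2, 0.06 without HttQ175/+ replicate 4, 0.25 without WT replicate 2 and 0.03 without WT replicate 3.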

How the data were processed

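Frozen striatum was lysed, nuclei were pelleted through iodixanol, and 3' droplet libraries were made with Chromium version 3 chemistry, per the labels' protocols. The submitters' processing notes name Cell Ranger 3.0.2, Seurat and the mm10 build. How nuclei were filtered, how types were called and whether counting used strand are not given in the sources consulted. The authors deposited values on a natural log scale for each mouse, ln(1 + x), where x is the UMIs of a gene scaled to 10000 in its nucleus, for 27998 genes. Dividing the linear values by the smallest one of each nucleus gave back whole UMIs: 100% of the 5824756 values above 0 came out whole within 0.02. Types and genotypes came from the other columns of the authors' deposited annotation, and its genotypes equalled those of the labels for each of the 4524 nuclei. The deposited smoothed values were left out, since smoothing mixes nuclei.

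Linear values were averaged over the endothelial nuclei of each mouse, which had 5 or more in every mouse, expressed as CPM and given TMM scaling (a trimmed mean of log ratios). The fit was limma-trend (limma 3.58.1, R 4.3.3) on log2 of CPM plus 114.48, worth 2 UMIs at the median mouse total of 17471, with Benjamini-Hochberg adjustment over all genes tested. A gene was tested if it had 15 UMIs or more over all mice and, in 2 mice or more, 10 at the median mouse total, which 235 genes did. A gene could thus enter through mice of a single genotype in which it was high. Mean CPM are printed before TMM, and overlap of the groups was judged on these values, while fold changes are after TMM. The TMM factors were 0.71, 0.725, 1.136 and 1.576 in HttQ175/+ replicates 1 to 4. In WT replicates 1 to 3 they were 0.9, 1.195 and 1.01. Single values per mouse were compared with exact two-sided permutation tests over the 35 splits (scipy 1.17.1). Intervals are 95% exact ones and, like limits of 3 UMIs, cover counting error only. Scrublet in scanpy 1.11.5 marked 60 of 4524 nuclei as doublets. Any earlier removal of doublets is not stated in the labels. The fit was tested on simulated data.

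The nuclei, 24 gene lists (299 symbols, 3 of them not found in the tables) and measures were chosen with earlier results of these data known. The naming rule took the 25 genes highest against other types, the 5 smallest p of each direction where none passed, the 4 highest members of each list and Htt. Genes whose groups did not overlap and single examples of a role or of the mural contrast were named after their values were seen. Sequences are from RefSeq, and alternatives are given in the closing section. Some items are not reported here.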

Additional observations from a re-analysis of the deposited data

Results flagged for a closer look

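Among the 4 HttQ175/+ mice, 43 values were examined for a mouse far from the other 3, and 2 were found, where chance gives about 1 in 20. The share of mural-majority nuclei was 41.2% in HttQ175/+ replicate 2, against 50.0 to 51.5% in the other 3. The same mouse had 18 of 34 nuclei under 10 vascular marker UMIs, and its share was 68.8% among its 16 other nuclei. The macrophage and leukocyte list summed to 20.8 CPM in HttQ175/+ replicate 1, against 0 in the other 3, and this stood on 3 UMIs in 1 nucleus.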

How the results depend on the processing

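In every alternative fit 0 genes were called. The smallest adjusted p was 0.576 to 0.951 over the alternatives that kept all 7 mice and the depth filter, 0.152 among 9077 genes with the filter lowered to 5 UMIs, and 0.444 to 0.872 when 1 mouse was left out. The count at an unadjusted p under 0.05, 16, was 8 of 232 genes with CPM of summed UMIs, 331 of 9077 with the lower filter, 24 of 728 with a minimum of 10 nuclei a mouse, 4 of 200 without mural-majority nuclei, and 8 to 29 when 1 mouse was left out. Of 68 named genes in the fit, 46 kept their direction in every alternative run and 22 turned in at least 1, in 48 of 1255 refits. None of these was past the threshold in either direction, and the cause was not tested. Under a minimum of 10 nuclei, log2 fold changes were -0.48 for Vtn, -1.17 for Kcnj8, -0.17 for Sparc, -0.08 for Ebf1, -0.21 for mt-Co3, 0.69 for Cgnl1, 0.03 for Eng and 0.46 for Spock2, and 6 of 12 pericyte genes were positive, with a median of -0.00. Without mural-majority nuclei they were 0.08 for H3f3b, 0.47 for Pecam1, 0.01 for Eng, -0.32 for Sparc, 0.00 for Spock2, 0.47 for Mgp, 0.24 for B2m, 0.19 for Nfkbia, 0.94 for Foxp1, -0.14 for mt-Co1, -0.24 for mt-Co3, -0.00 for mt-Atp6 and -0.02 for mt-Co2, and 15 of 18 core genes were negative. With mice weighted by nuclei they were -0.07 for Slc6a6, 0.30 for Syt1, 0.27 for Pde10a, 0.32 for Foxp1, -0.05 for mt-Co3 and -0.12 for Kcnj8. For mt-Co3 the value was -0.01 without TMM and -0.14 with summed UMIs, where the mitochondrial median was -0.06.

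When each mouse was left out, values that turned ran from -0.56 to 0.01 for B2m, -0.51 to 0.18 for Car4, -0.65 to 0.02 for Cgnl1, -0.07 to 0.51 for Ebf1, -0.41 to 0.22 for Foxp1, -0.49 to 0.60 for Kcnj8, -0.33 to 0.06 for Nfkbia, -1.74 to 0.09 for Pde10a, -0.38 to 0.27 for Pecam1, -0.46 to 0.02 for Podxl, -0.21 to 0.47 for Slc6a6, -0.40 to 0.12 for Spock2, -0.75 to 0.29 for Syt1 and -0.17 to 0.18 for mt-Co3. Differences of HttQ175/+ minus WT ran from -0.396 to 0.673 percentage points for the share of endothelial nuclei, -78.6 to 110.9 UMIs for the median UMIs per endothelial nucleus, -3.70 to 3.75 points for the mural content (share of nuclei with a UMI of the mural lists), and 15.1 to 26.7 points for the mural-majority share. The 18 genes whose groups did not overlap (1 higher and 17 lower in HttQ175/+, 7.66% of those tested) became 465 with the lower filter (249 higher and 216 lower, 5.12%), where the median log2 fold change of all genes was 0.10 in place of -0.24, 353 with a minimum of 10 nuclei (126 higher and 227 lower, 48.5%), and 18 to 55 when 1 mouse was left out, where fewer mice make separation easier. The alternative with at least 10 marker UMIs in each nucleus and those of lists were added after the data were seen. With 5 or 50 CPM added in place of 20, 19 and 22 of the 25 leading genes were shared. Keeping mice with any nucleus and leaving out Scrublet calls could change no fit. Every mouse had 5 or more endothelial nuclei, and none of these nuclei was marked. A filter of 40 UMIs kept 235 genes and gave the same values. These alternatives repeat the main fit and are counted among the 1255 refits. No paired analysis was possible because the labels give no replicate numbers that pair mice.

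Of 13468 detected genes 235 were deep enough to test, and 3 mice held 8 or fewer nuclei. Age differed in 1 mouse.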
